A study of Rattus norvegicus with 50 samples.

Results

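Kidney cortex and kidney medulla of obese ZSF1 rats given vehicle were compared, to see which regional differences the diseased kidney holds. The comparison used 10 of the 50 libraries of the series, 5 from obese cortex (replicates 1, 2, 3, 5 and 6) and 5 from obese medulla (replicates 3, 4, 5, 6 and 7), chosen by their labels. The reference was the same comparison in 5 lean cortex and 5 lean medulla libraries, also from vehicle-treated ZSF1 rats. For all these groups the labels give an age of 20 weeks together with a treatment time of 28 weeks, and which event the age belongs to is not stated. Regional differences under enalapril at 10 mpk, MK-8722 at 1 mpk and MK-8722 at 10 mpk in obese rats, each with 5 libraries per tissue, were set beside them. MK-8722 activates AMP-activated protein kinase and enalapril inhibits angiotensin-converting enzyme. Total RNA was depleted of ribosomal RNA and sequenced with strand information. The labels do not say which libraries came from the same animal, nor that replicates were separate animals, and the p-values therefore cover only library-to-library spread, which may be technical.

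The renal cortex holds the glomeruli, the proximal tubules and the distal convoluted tubules, where filtration and most reabsorption take place. The medulla holds the loops of Henle, the collecting ducts and the vasa recta, which build and use the osmotic gradient that concentrates urine. Obese ZSF1 rats carry defective leptin receptor alleles on both chromosomes and develop obesity, diabetes, hypertension and progressive kidney disease, while lean ZSF1 rats keep a working allele. In bulk tissue, fewer cells of a type and less RNA per cell cannot be told apart. The deposited table pairs its Ensembl gene IDs with no gene names, and 0 of them matched the reference gene table, so genes are given by ID and the tissue labels were not checked against marker genes.

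The obese cortex libraries were not all alike. Replicate 5 correlated nearly as closely with lean cortex (mean r = 0.964 across genes) as with the other obese cortex libraries (0.972). Replicate 3 came next, at 0.95 with lean cortex and 0.978 with its own group. Replicate 5 was the only obese vehicle library in a separate, higher range of library numbers, which also held 2 of the 5 lean cortex libraries. Every library of that range in the series came from cortex, in the treated groups as well, and none came from medulla. Relative depth, read from the steps of low values, was higher in cortex than in medulla: 0.992 ± 0.206 and 0.705 ± 0.0791 in obese and 1.32 ± 0.0786 and 1.09 ± 0.0749 in lean kidney (SD, n = 5). The obese ranges touched, at 0.788 to 1.30 in cortex and 0.58 to 0.789 in medulla. The 6 most abundant IDs took 39.1% (replicate 2) to 59.6% (replicate 5) of the summed FPKM in obese cortex and 52.3% to 55.2% in obese medulla. Libraries varied more within obese cortex, where the median SD of a gene was 0.211 on the log2 scale, than within obese medulla (0.166) or lean cortex (0.133).

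Cortex and medulla of the obese kidney differed in a large share of the measured genes. Of 13473 genes with at least 1 FPKM (fragments per kilobase of transcript, scaled to library size) in 5 or more of the 10 libraries, 1469 were higher in cortex (10.9%) and 3926 in medulla (29.1%), together 40% of the genes tested. Calls had a limma adjusted p under 0.05 on log2(FPKM + 0.5), a scale that understates the change of low genes. At least 2-fold differences were called for 338 genes higher in cortex and 683 higher in medulla, and at least 4-fold differences for 66 and 88. After the rescaling described next, these counts turned around to 488 and 469 at 2-fold and 89 and 60 at 4-fold. The deposited values of all 5 cortex libraries lay above those of all 5 medulla libraries for 1211 genes (8.99%), and the reverse held for 2519 genes (18.7%).

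The lead of medulla depended on the scaling. As deposited, the median log2 difference of cortex minus medulla over all genes was -0.19. Median-ratio rescaling, which divides a library by the median of its genes' ratios to their geometric means over libraries, set that median to 0. It gave 2780 genes higher in cortex (20.6%) and 2217 higher in medulla (16.5%), so that the share of calls higher in cortex was 55.6% in place of 27.2%. All 1469 deposited cortex calls and all 2217 rescaled medulla calls were also called on the other scale. Once relative depth, which was higher in cortex, entered the fit as a term, 1120 genes were higher in cortex and 778 in medulla. Without obese cortex replicate 5 the counts were 1358 and 2941, of which 1310 and 2931 were calls of the full comparison. They were 1292 and 2841 without obese cortex replicate 3, and 1344 and 4614 without obese cortex replicate 2.

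IDs named by their regional difference were picked for its size in obese kidney, so their fits there are a description of that choice. On the cortical side the largest difference was that of ENSRNOG00000007456. It was measured at 83, 110, 101, 126 and 107 FPKM in obese cortex and at 6.6, 6.66, 4.59, 8.04 and 6.04 FPKM in obese medulla, in the order of the replicates. Every cortex library exceeded every medulla library more than 10-fold, and the log2 difference was 3.95 ± 0.138 (SE, limma adjusted p = 7.74e-09), or 4.15 after rescaling. Lean kidney had 133 ± 17.9 FPKM in cortex and 12.4 ± 7.7 in medulla (SD, n = 5), a log2 difference of 3.58, and the difference between obese and lean did not pass (0.37 ± 0.429 SE, limma adjusted p = 0.701).

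ENSRNOG00000009589, the next largest on that side, was a cortical transcript of the obese kidney. It stood at 13.9, 17.5, 20.6, 26.1 and 11 FPKM in obese cortex and at 1.37, 0.927, 0.723, 0.628 and 0.328 FPKM in obese medulla. The rule for naming IDs by their regional difference required groups without overlap. The log2 difference was 3.82 ± 0.247 (SE, limma adjusted p = 5.72e-07). In lean kidney both levels were low, 0.949 ± 0.221 FPKM in cortex and 0.162 ± 0.106 in medulla (SD, n = 5), under the filter for a test of lean libraries alone. The regional difference was larger in obese than in lean kidney by 2.68 ± 0.299 on the log2 scale (SE, limma adjusted p = 2.02e-05). That fit uses the obese values that picked this ID and is a description as well. Without its obese cortex libraries the ID would not have passed the filter. Under MK-8722 at 10 mpk this ID was at 2.85 ± 1.84 FPKM in cortex and 0.342 ± 0.15 in medulla (SD, n = 5). At 1 mpk it was at 7.46 ± 3.47 and 0.699 ± 0.429, and under enalapril at 17.4 ± 5.51 and 2.32 ± 1.17.

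Both leading medullary IDs were low in cortex. ENSRNOG00000056021 was at 28.7, 26.2, 20.9, 24.3 and 19.7 FPKM in obese medulla, whereas in obese cortex it was listed at 0 in replicates 3, 5 and 6 and at 0.0832 and 0.0895 FPKM in replicates 1 and 2. Its log2 difference was -5.51 ± 0.129 (SE, limma adjusted p = 1.16e-10). This ID passed the filter only through its medulla libraries and was picked for the size of this difference. The fit is therefore a description of that choice. Lean medulla had 23.5 ± 5.44 FPKM (SD, n = 5), and the difference between the genotypes was -0.15 ± 0.195 (SE, limma adjusted p = 0.726), or 0.21 after rescaling (limma adjusted p = 0.552). This ID held a narrow range of medullary means in all 5 conditions, from 23.5 to 33.3 FPKM.

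ENSRNOG00000061376 was at 114, 87, 82, 76.8 and 52.7 FPKM in obese medulla and at 3.67, 3.03, 0.437, 1.1 and 0.511 FPKM in obese cortex. The log2 difference was -5.44 ± 0.427 (SE, limma adjusted p = 6.89e-06), against -5.90 ± 0.268 in lean kidney. Obese cortex replicates 1 and 2 were the highest cortex libraries of this ID, followed by replicate 5, while replicates 3 and 6 lay within the lean cortex range of 0 to 0.707 FPKM. The genotype difference of 0.46 ± 0.544 did not pass (SE, limma adjusted p = 0.705).

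**Figure D1:**
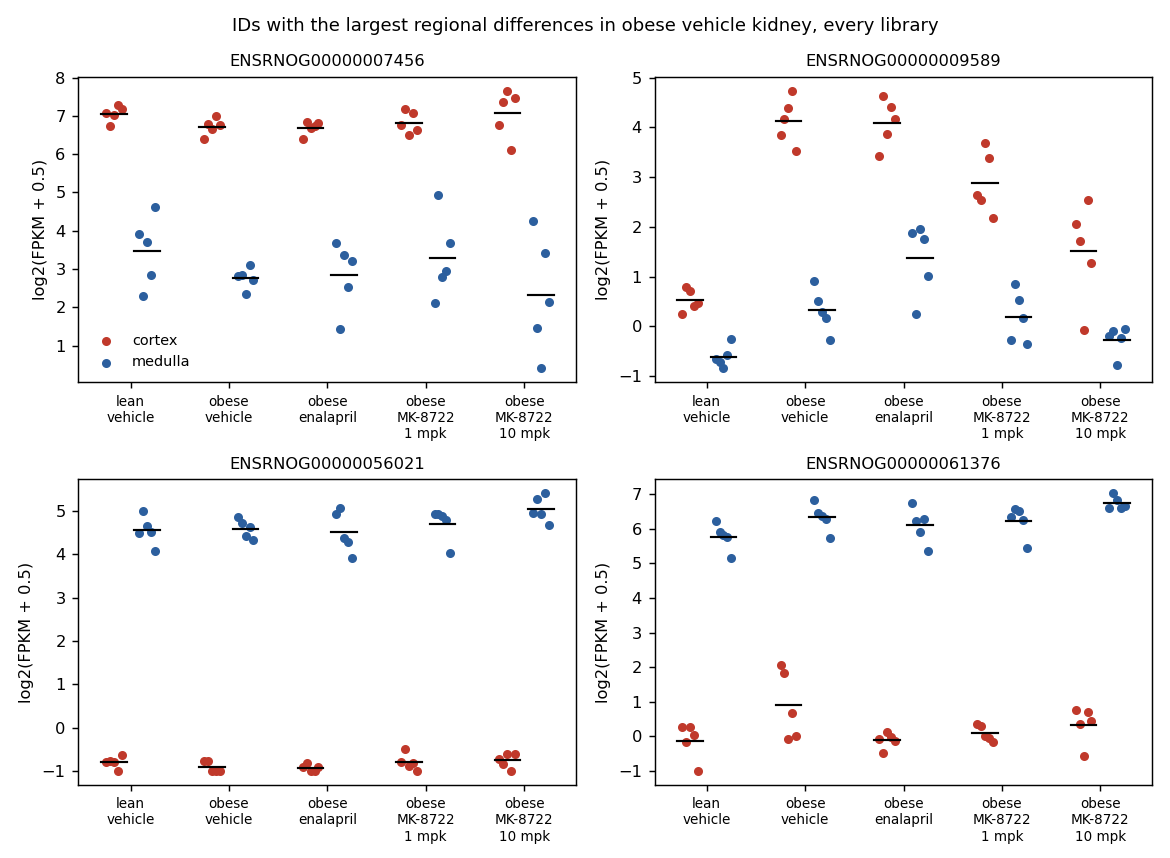
Level of the 4 IDs with the largest regional differences in obese vehicle kidney, as log2(FPKM + 0.5), by condition. Each point is 1 library (5 per group, red cortex, blue medulla) and each bar a group mean. ENSRNOG00000007456, ENSRNOG00000056021 and ENSRNOG00000061376 keep the tissues apart in all 5 conditions, while ENSRNOG00000009589 is low in both tissues of lean kidney.

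Most of the regional differences of the lean kidney were also called in the obese kidney. In lean libraries 1896 of 12452 genes were higher in cortex (15.2%) and 4512 in medulla (36.2%), together 51.5%. Among 12271 genes tested in both genotypes, 1113 of the 1848 lean cortex genes were also higher in obese cortex (60.2%, where 10.9% of the 13473 genes tested in obese kidney were). Of the 4423 lean medulla genes, 2532 were also higher in obese medulla (57.2%, where 29.1% of those 13473 were). Reversed calls were rare: 14 lean cortex genes were called higher in obese medulla, and 33 lean medulla genes higher in obese cortex. All 47 had a called difference between the genotypes. Opposite calls on the same libraries make that nearly certain, so it adds no support.

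Genes called in lean kidney alone were mostly not shown to differ. Of 721 lean cortex genes without a call in obese kidney, 142 (19.7%) had a called difference between the genotypes, and of 1858 such lean medulla genes 168 did (9.04%). Their obese values still pointed the lean way in 522 and 1637 genes. In the other direction, 305 genes were called higher in cortex in obese kidney alone and 998 higher in medulla. A called difference was found for 76 (24.9%) and 68 (6.81%) of them. Over all 13821 genes tested for that difference the share was 6.11%. After rescaling, 24.5% of all genes were higher in lean cortex and 21.5% in lean medulla (46% together), and 2018 of 3001 lean cortex genes (67.2%) and 1347 of 2584 lean medulla genes (52.1%) were kept, where 20.6% and 16.5% of all genes were called in obese kidney. With relative depth as a term the shares were 72.7% of 851 and 28.5% of 1796, where 8.31% and 5.77% of all genes were called. Without the libraries of the higher number range they were 64.7% of 1501 and 51.8% of 3494, where 10.1% and 22% of all genes were called.

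The share kept rose with the size of the lean difference. Under a log2 difference of 0.5, obese kidney kept 420 of 957 cortex genes (43.9%) and 1072 of 2499 medulla genes (42.9%). Between 1 and 2 it kept 268 of 301 (89%) and 472 of 542 (87.1%), and between 2 and 3 it kept 62 of 63 and 103 of 114. All 5 cortex genes and all 37 medulla genes with a lean difference of at least 3 that were tested in both genotypes were kept. Lean kidney had 43 such medulla genes before that condition. Those under the filter in obese kidney, ENSRNOG00000056476 among them, are not counted, so the shares leave out genes that fell that low. The 37 medullary genes had a median log2 difference of 3.46 in lean and 2.44 in obese kidney; they were chosen on lean values, so this is a description. For the 63 cortex genes between 2 and 3 the medians were 2.32 and 2.26.

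**Figure D2:**
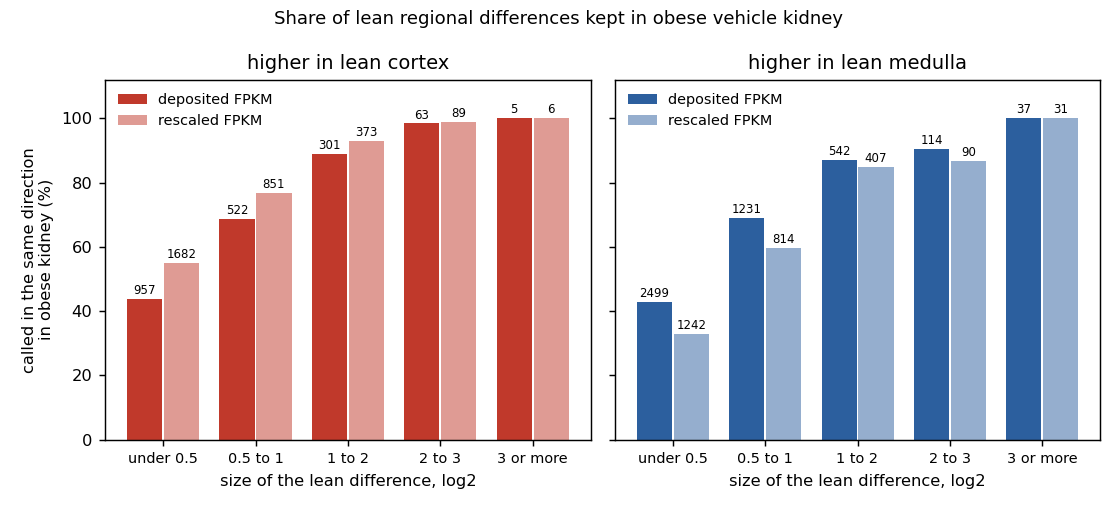
Share of genes called higher in lean cortex (left) or lean medulla (right) that were called in the same direction in obese kidney, in percent. Bars are grouped by the size of the lean log2 difference, and only genes tested in both genotypes enter. The number over each bar is the count of these lean genes. The share rises from 43.9% and 42.9% under 0.5 to 100% at 3 or more on the deposited values.

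To compare sizes without choosing genes on 1 genotype, genes were taken by the mean of the lean and obese differences, called at a log2 difference of at least 1. The 733 genes higher in medulla had a median difference of 1.5 in lean and 1.27 in obese kidney, and 496 of them (67.7%) had the larger difference in lean, where 45% of all genes lay on that side. The 365 genes higher in cortex had medians of 1.44 and 1.36, and 195 (53.4%) had the larger difference in lean, where 55% of all genes lay on that side. After rescaling the medullary share was 76.7%, where 52.1% of all genes lay on that side, and the cortical share 53.1%, where 47.9% did. No test was made over these genes, and the medullary share ranged from 59.1% without obese cortex replicate 1 to 74.9% without obese cortex replicate 5. Across the 12271 genes the lean and obese log2 differences had a Pearson correlation of 0.823 and a Spearman correlation of 0.729, where the genes are not independent of each other.

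**Figure D3:**
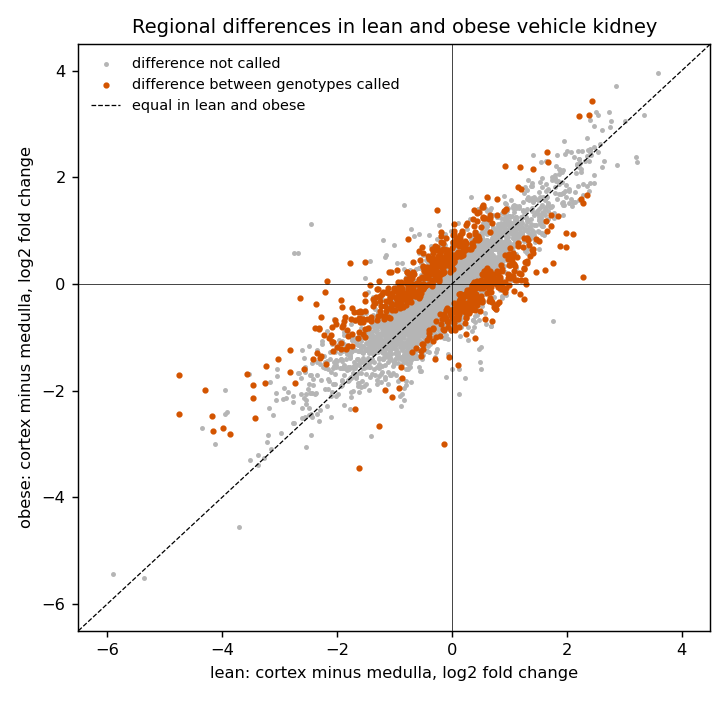
Log2 difference of cortex minus medulla in lean (horizontal) and obese vehicle kidney (vertical), 1 point per gene tested in both, on deposited values. Orange points have a called difference between the genotypes and the dashed line marks equal values; most genes follow it (r = 0.823), and the genes far to the left, higher in lean medulla, lie mostly above it.

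The difference itself was tested over the 20 vehicle libraries. Of 13821 genes, 845 (6.11%) had a regional difference that differed between obese and lean kidney, 492 shifted toward cortex in obese rats (3.56%) and 353 toward medulla (2.55%). After rescaling 747 (5.4%) and 406 (2.94%) genes were called, 8.34% in all, 461 and 316 of which were calls of the deposited values. Without the libraries of the higher number range the counts were 317 and 160, and without obese medulla replicate 7 the genes shifted toward medulla numbered 232. With the replicate number as a block, on 3 obese and 4 lean pairs of libraries, the counts were 226 and 217. Leaving out each library in turn, 311 and 207 of the calls were made every time.

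With changes split by the tissue that was higher in lean kidney, the largest class was a medullary gene that lost part of its lead. On deposited values more genes were called higher in lean medulla (36.2%) than in lean cortex (15.2%) to begin with. After rescaling the shares were 21.5% in medulla and 24.5% in cortex. The classes follow the sign of the mean lean difference, not these calls, so the shares are not their exact background. Of the 845 genes, 232 (27.5%) were higher in lean medulla and less so in obese medulla, with median log2 differences of -1.36 and -0.40. The level of 169 of these fell in medulla with obesity and that of 21 rose, whereas over all genes 11.9% fell and 58.3% rose in medulla. In cortex 86 of the 232 rose and 29 fell, whereas over all genes 54.6% rose and 6.88% fell. The opposite case, a medullary gene with a larger lead in obese kidney, counted 74 genes, and the medullary level of 71 rose. Genes higher in cortex had a smaller lead in obese kidney in 114 cases, 103 with a rise in medulla, and a larger lead in 99 cases, 90 with a fall in medulla. The sign of the mean difference was opposite in 164 genes higher in lean cortex and 161 higher in lean medulla, and 1 gene had no difference in lean kidney. These counts use the libraries of the test that chose the genes and are a description. After rescaling, 345 of 1153 genes (29.9%) were medullary with a smaller lead in obese kidney, 254 of them with a fall in medulla and 39 with a rise, where 31.2% of all genes fell and 26.4% rose.

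The IDs with the largest shifts, 2 in each direction, were picked for their size after their values had been seen, and their fits are a description of that choice. ENSRNOG00000057928 was at 36.9, 40.2, 31.5, 28.4 and 32.7 FPKM in lean medulla but at 3.37, 1.34, 5.24, 1.58 and 1.15 FPKM in obese medulla. No obese medulla library reached the lowest lean one. In cortex it ran from 0 to 4.77 FPKM in lean and from 0 to 1.13 FPKM in obese kidney. Its log2 difference of cortex minus medulla was -4.75 in lean and -1.70 in obese kidney, a shift of 3.05 ± 0.729 (SE, limma adjusted p = 0.0184). The call was lost with a pseudocount of 0.1 (limma adjusted p = 0.171) and without the libraries of the higher number range (limma adjusted p = 0.059).

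ENSRNOG00000056476 showed the same pattern at a lower level. Lean medulla had 9.59, 8.73, 10.8, 12.1 and 7.61 FPKM and obese medulla 1.48, 0.999, 1.2, 0.583 and 0.439 FPKM, again without overlap. Cortex ran from 0 to 1.04 FPKM in lean and from 0.0563 to 0.523 FPKM in obese kidney, and the shift was 2.95 ± 0.374 (SE, limma adjusted p = 8.36e-05). Obese medulla under MK-8722 at 10 mpk had 1.78 ± 1.08 FPKM of this ID and 6.66 ± 2.86 of ENSRNOG00000057928, both far under the lean levels.

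ENSRNOG00000008979 gained a medullary lead. It was at 46.8, 73.1, 39.2, 67.6 and 108 FPKM in obese medulla, against 5.71, 6.49, 5.08, 6.21 and 7.97 FPKM in lean medulla. Cortex differed little, with 7.65 ± 1.86 FPKM in obese and 5.74 ± 1.48 in lean kidney (SD, n = 5). The log2 difference was -2.99 in obese and -0.14 in lean kidney, a shift of -2.85 ± 0.33 (SE, limma adjusted p = 7.42e-05). The lead was also present under enalapril, where medulla had 30.6 ± 18.3 FPKM, and under MK-8722 at 1 mpk, where it had 80.7 ± 23.8 (SD, n = 5). At 10 mpk medulla spread widely, from 19.5 to 183 FPKM.

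ENSRNOG00000010254 was a transcript of obese medulla. It was at 4.2, 4.53, 3.8, 3.33 and 3.5 FPKM there, while 4 of the 5 lean medulla libraries listed it at 0 and the fifth had 0.0726 FPKM. In obese cortex the values ran from 0 to 0.287 FPKM, and in lean cortex from 0 to 0.0654. The shift was -2.85 ± 0.207 (SE, limma adjusted p = 5.78e-08). Every group of obese medulla held it, from 2.31 ± 1.13 FPKM under MK-8722 at 10 mpk to 5.11 ± 1.3 under MK-8722 at 1 mpk (SD, n = 5).

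**Figure D4:**
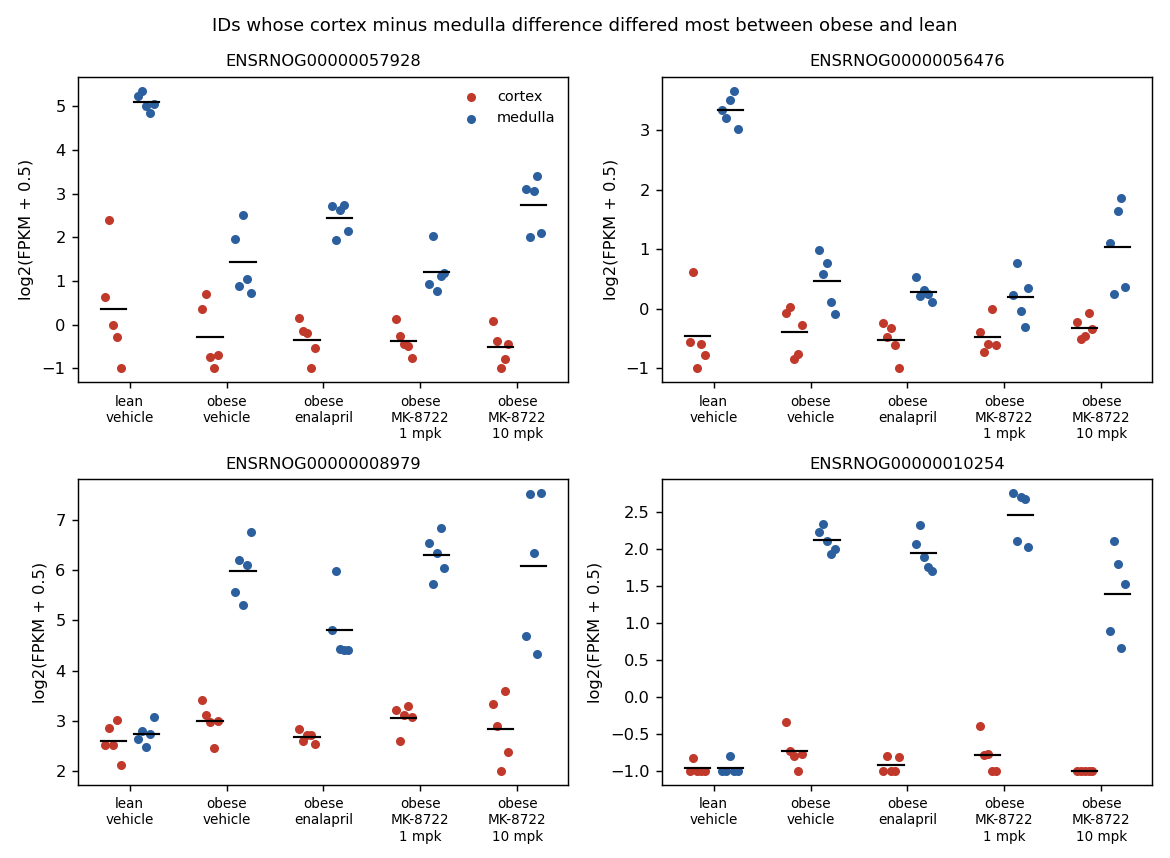
Level of the 4 IDs whose regional difference shifted most between lean and obese vehicle kidney, as log2(FPKM + 0.5), by condition. Each point is 1 library (5 per group, red cortex, blue medulla) and each bar a group mean; in the upper panels medulla falls toward cortex in all obese groups, and in the lower panels medulla separates from cortex in the obese groups.

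Regional differences of obese vehicle kidney recurred in treated obese kidneys, whose libraries are not shared with it. Of 1463 cortex genes tested under enalapril, 1132 (77.4%) were again higher in cortex, where 10.3% of all genes were, and of 3776 medulla genes 3215 (85.1%) were again higher in medulla, against 42.3%. Under MK-8722 at 1 mpk the shares were 82.1% of 1458 cortex genes, against 10.9%, and 63.2% of 3863 medulla genes, against 21.9%. At 10 mpk they were 63.7% of 1446, against 8.92%, and 62.4% of 3800, against 26.2%. Reversed calls numbered 0 under enalapril and under MK-8722 at 1 mpk, and 1 on each side at 10 mpk. After rescaling the cortex shares were 80.3% under enalapril, 69.7% at 1 mpk and 60.2% at 10 mpk of MK-8722, against 22%, 16.8% and 16.9%. The rescaled medulla shares were 73.3%, 67.6% and 63.3% in the same order, against 17.6%, 13.8% and 14.7%. Whether these shares differ between treatments was not tested.

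A core of 761 cortex genes and 1588 medulla genes was called in the same direction in all 5 conditions, among 12141 genes tested in every one. That is 53.1% of the 1432 cortex calls and 45.2% of the 3515 medulla calls of obese vehicle kidney in this set. After rescaling the core held 1218 and 885 genes. Calls found in obese vehicle kidney and in no other condition numbered 90 and 282, but their difference from the other conditions was not tested. Log2 differences correlated across genes with those of obese vehicle kidney at r = 0.916 under enalapril, 0.917 under MK-8722 at 1 mpk and 0.892 at 10 mpk, beside 0.823 in lean kidney; these points share the genes and the library method.

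Each library was also placed on a line from the mean of cortex (0) to the mean of medulla (1) of obese rats on MK-8722 at 1 mpk, whose libraries enter neither the lean nor the obese vehicle group. The line used the genes that passed the filter in obese vehicle kidney. Obese cortex libraries lay at 0.20, 0.09, -0.19, -0.32 and 0.04 and lean cortex libraries between -0.49 and -0.32. Obese medulla libraries lay between 0.93 and 1.02 and lean medulla libraries between 0.35 and 0.63. The medullary groups did not overlap, and the cortical groups met at obese replicate 5 and lean replicate 2. Lean kidney was thus displaced toward the cortical end in both tissues, with means of -0.42 and -0.03 for lean and obese cortex and 0.51 and 0.98 for medulla. Exact two-sided permutation tests gave p = 0.0159 for cortex and p = 0.00794 for medulla, the smallest that 5 against 5 libraries allow (both 0.0238 after Benjamini-Hochberg adjustment over 3 tests). Relative depth also differed between the genotypes, with means of 1.32 and 0.992 in lean and obese cortex and 1.09 and 0.705 in medulla. Its part in these positions was not tested.

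The distance from cortex to medulla on that line was 1.01 in obese and 0.93 in lean kidney. The difference of 0.08 was not distinguishable from 0 (exact two-sided permutation test within each tissue, p = 0.713, adjusted 0.713). After rescaling the difference was 0.05 (exact two-sided permutation test within each tissue, p = 0.789). The line was drawn from obese rats, on genes that passed the filter in obese vehicle kidney. Lean medullary genes under that filter, ENSRNOG00000056476 among them, do not enter it. This comparison is therefore not even between the genotypes and cannot show regional differences lost in obese kidney. Whether the distance differs on a line drawn without that choice was not tested. Obese medulla was the tightest of the vehicle groups, with an SD of 0.0335, and obese cortex the widest, with an SD of 0.215.

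**Figure D5:**
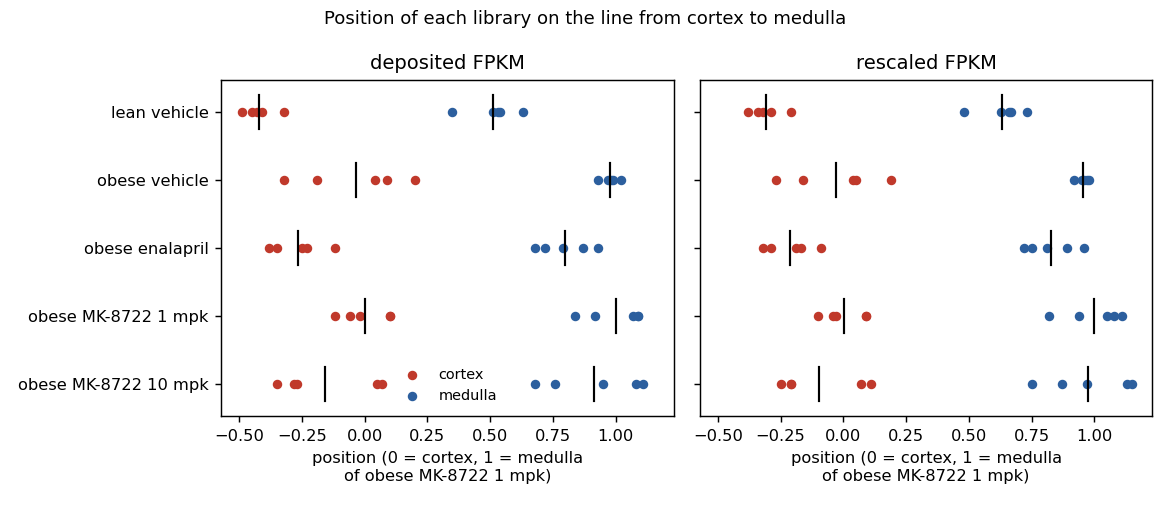
Position of each library on the line from cortex (0) to medulla (1) of obese MK-8722 1 mpk kidney, on deposited (left) and rescaled FPKM (right). Each point is 1 library (red cortex, blue medulla) and each bar a group mean; lean means lie left of obese vehicle means in both tissues, the medullary groups do not overlap and the cortical groups meet on deposited and overlap on rescaled values, with distances between the tissues of 0.93 (lean) and 1.01 (obese) on deposited values.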

How the data were processed

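The authors deposited FPKM values for 32545 Ensembl gene IDs in 50 libraries; the name of the deposited table gives the unit. Software for alignment and counting, and the build, were not given in the sources used here. Tissue was flash frozen and 1 µg of total RNA entered each ribosomal-RNA-depleted stranded library, per the labels' protocols. Columns were matched to samples by the library number in each description. Tests used R 4.3.3 with limma 3.58.1 on log2(FPKM + 0.5), with limma's trend and robust settings, two-sided, adjusted by Benjamini-Hochberg over all genes tested. Obese and lean kidney were each fitted on their own 10 libraries, and the difference between them on 20, keeping genes with at least 1 FPKM in 5 libraries of the fit. Absolute depth is unknown; with a tolerance of 0.1 reads, 95% of 52437 low values in 4580 genes were whole multiples of the value of 1 read, which gave relative depth and limits low genes.

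Groups and lists were chosen with earlier results of these data known. The rule for named genes took the largest differences past the threshold whose groups did not overlap and whose higher group had a mean of at least 2 FPKM; 1149 and 2332 genes met it. It asked for gene symbols, which were not at hand, so it was restricted to 2 IDs per direction, and 23 gene lists could not be run. IDs for the genotype difference and the line between tissues were added after the data had been seen. Alternatives were median-ratio rescaling, pseudocounts of 0.1 and 1, no filter or at least 5 FPKM, a joint fit of 50 libraries, the replicate number as a block, relative depth as a term, and leaving out each library. The procedure was tested on simulated data.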

Additional observations from a re-analysis of the deposited data

Results flagged for a closer look

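The regional difference itself differed between obese and lean kidney for 845 genes (limma, interaction term over 20 libraries). Among the IDs named, the shift of obese minus lean was 3.05 for ENSRNOG00000057928, 2.95 for ENSRNOG00000056476 and 2.68 for ENSRNOG00000009589 on the log2 scale. It was -2.85 for ENSRNOG00000008979 and also -2.85 for ENSRNOG00000010254.

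In 44 groups of 5 libraries examined for a single library far from the rest, 5 groups held one, on 3 libraries. Chance flags about 1 in 20 groups of normal values, a rate that does not hold for FPKM near 0. A group with 4 libraries at 0 and a single value above 0 is always flagged, as both were for ENSRNOG00000010254. Lean cortex replicate 2 was the highest of its group for 3 IDs with low cortical levels, at 4.77 FPKM of ENSRNOG00000057928, 1.04 FPKM of ENSRNOG00000056476 and 0.0654 FPKM of ENSRNOG00000010254. Lean medulla replicate 5 was the highest for ENSRNOG00000010254, at 0.0726 FPKM, beside 4 libraries listed at 0. Lean medulla replicate 1 had the lowest relative depth of its group, 0.961. Without lean cortex replicate 2 the shifts of ENSRNOG00000057928 and ENSRNOG00000056476 were 3.56 and 3.22.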

How the results depend on the processing

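The difference each ID was named for kept its direction under every alternative that gave a value, and the call was lost only for ENSRNOG00000057928, as given above. Median-ratio rescaling gave 2780 and 2217 genes higher in cortex and in medulla in obese kidney, 3051 and 2671 in lean kidney, 747 genes shifted toward cortex in obese rats, and 2018 and 1347 genes kept in cortex and medulla. Relative depth as a term gave 778 genes higher in obese medulla, 878 and 1869 in lean cortex and medulla, and 619 and 512 kept. At least 5 FPKM, which tests fewer genes, left 1608 medulla genes kept. The share of medullary genes with the larger difference in lean was 76.7% with rescaling, 71.3% with at least 5 FPKM, 76.4% with relative depth and 73.4% without the higher number range, where the cortical share was 59.1% and the shifts numbered 317 and 160. Leaving out 1 library gave 232 to 444 genes shifted toward medulla, medullary shares of 59.1% to 74.9% and cortical shares of 48.4% to 60.1%; the cause was not tested. IDs absent from cortex fall under the filter when a medulla library is left out and then have no value. Deviations of same-numbered cortex and medulla libraries correlated across genes at r of 0.0893 to 0.262 in 3 obese pairs and -0.00236 to 0.116 in 4 lean pairs. Some but not all libraries correlated best with the library of their own number. These values do not settle whether the number marks a pairing, and the main fits left it out. With the replicate block, on 3 obese and 4 lean pairs, 226 and 217 genes shifted toward cortex and medulla, the medullary share was 54.4%, and 1172 and 3847 genes were higher in obese cortex and medulla. Low depth in obese medulla limits genes near 1 FPKM.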

Other observations

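The most abundant genes were called higher in cortex more often than in medulla in obese kidney, and the least abundant genes the other way round. Among 628 genes with a mean of at least 100 FPKM in either tissue, 197 were higher in cortex (31.4%) and 143 in medulla (22.8%). Among 6082 genes from 10 to under 100 FPKM the counts were 895 (14.7%) and 1761 (29%), and among 6753 genes from 1 to under 10 FPKM they were 377 (5.58%) and 2022 (29.9%). After rescaling the most abundant class held 275 genes higher in cortex and 93 in medulla, and the least abundant class 748 and 1175, while the middle class turned over to 1757 and 949. Relative depth was lower in obese medulla than in obese cortex; its part in this pattern was not tested.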
